A study of Mus musculus with 4 samples.

Results

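The CC chemokine family was examined here in primary mouse microglia, as 10 genes chosen by name because their proteins belong to a class read by the secreted protein array of the study. Ccl2, Ccl3, Ccl4, Ccl5, Ccl6, Ccl7, Ccl9, Ccl12, Ccl17 and Ccl22 were all present in the tables, as 10 of 22046 protein-coding genes and of 54532 genes in all. The 4 libraries came from microglia of male CD1 mouse pups aged 1 to 3 days, 2 given 1 µM EGCG and 2 given the DMSO vehicle, both for 24 h in serum-free medium. EGCG (epigallocatechin gallate) is a flavan-3-ol of green tea that carries a galloyl group. Both groups had been expanded with GM-CSF in mixed glia, freed of astrocytes with trypsin, and kept with IL-34, TGFβ2, GM-CSF and cholesterol, so the controls carried these factors too. Libraries are named by treatment and by the replicate number that the labels give. The labels call the replicates independent but do not state which animals or litters each came from, so p-values measure only the spread between these libraries.

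CC chemokines are small secreted proteins with adjacent cysteines near the amino terminus that guide leukocytes along concentration gradients through G protein-coupled receptors. Ccl3, Ccl4 and Ccl5 attract monocytes and T cells, Ccl6 and Ccl9 are rodent ligands of Ccr1, Ccl2, Ccl7 and Ccl12 recruit monocytes through Ccr2, and Ccl17 and Ccl22 attract T cells through Ccr4. In the brain, microglia and macrophages are a main source of several of them, and many of the genes are induced by NF-κB and interferon signals. In the files, 8 of the 10 genes lie on chromosome 11 of GRCm38 and the other two, Ccl22 and Ccl17, lie on chromosome 8. On chromosome 11, Ccl2, Ccl7 and Ccl12 lie between 82035571 and 82103400, and Ccl5, Ccl9, Ccl6, Ccl3 and Ccl4 lie between 83525778 and 83664683, a gap of 1422 kb apart.

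Total counts were between 33805071 and 54970300 per library, and EGCG replicate 2 was the deepest. A count of 3, taken as the floor, was worth between 0.0544 and 0.0936 CPM. CPM are counts per 1000000 of the library's counts in the protein-coding genes tested, after TMM scaling. All 9 microglia markers were detected, and their levels summed to 5739 CPM (Vehicle) and 6346 CPM (EGCG) at replicate 1 and to 8182 and 8030 CPM at replicate 2. The 7 stromal markers summed to 422.8 CPM for vehicle but 4.87 CPM for EGCG at replicate 1, against 157 and 174 CPM at replicate 2. In bulk RNA, fewer cells of a type and less RNA per cell cannot be told apart. No other gene of the annotation matched a member at 90% identity or more over 200 nt, and the closest other chemokine pair in the family, Ccl6 and Ccl9, was 75.5% identical over 290 nt. Ccl6 overlaps a non-coding transcript on the opposite strand (E230016K23Rik) that had at most 57 counts in a library.

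Reads of the family were dominated by Ccl6, Ccl9, Ccl5 and Ccl3, while Ccl17 was barely detected. Per kilobase of gene length, Ccl6 was highest at 709 ± 220 CPM per kb (SD over all 4 libraries, as for the following levels), then Ccl5 at 608 ± 494, Ccl9 at 501 ± 176 and Ccl3 at 345 ± 40.3. Even Ccl3, the lowest of these, was above 99.3% of the genes whose counts reached 10 in all. Ccl4 stood at 105 ± 5.65 CPM per kb and had the smallest spread relative to its level. The Ccr2 ligands were lower, at 20.3 ± 14.4 for Ccl12, 17.6 ± 7.22 for Ccl2 and 4.05 ± 3.25 for Ccl7. Ccl22 was at 1.19 ± 0.518 CPM per kb. Ccl17 had 0 counts in both vehicle libraries and 4 in each EGCG library, a total of 8 that did not pass the filter of 10 counts, so it was not tested and no fold is given. The order was not equally firm throughout. Ccl6 and Ccl5, Ccl5 and Ccl9, and Ccl12 and Ccl2 each changed places between libraries, in 2 of 4, and Ccl7 was above Ccl22 in 3 of 4. Ccl3 lay below Ccl9 in 4 of 4 libraries although their ranges overlapped. The steps from Ccl3 to Ccl4, Ccl4 to Ccl12, Ccl2 to Ccl7 and Ccl22 to Ccl17 were kept in every library without overlap of the ranges.

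**Figure D1:**
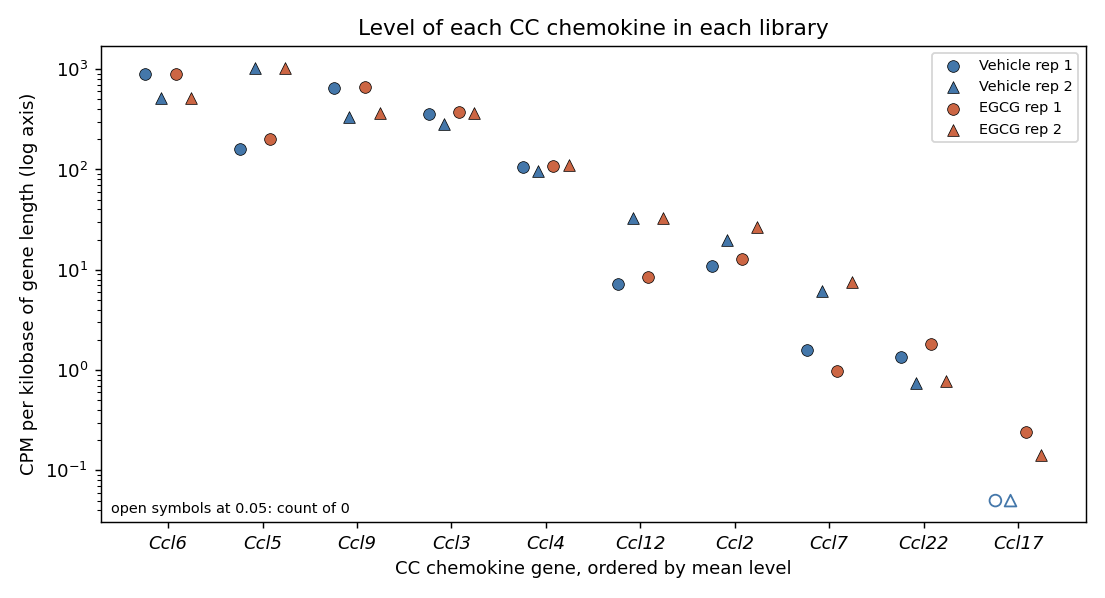
Level of each CC chemokine in CPM per kilobase of gene length (log axis) in each of the 4 libraries, with genes ordered by their mean. Blue marks vehicle, orange marks EGCG, circles mark replicate 1, triangles replicate 2 and open symbols a count of 0. Within most genes the circles lie together and the triangles lie together, whatever the colour, as for Ccl5 (161 and 201 against 1035 and 1037 CPM per kb).

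Ccl6 and Ccl9, neighbours on the minus strand of chromosome 11, were the largest contributors of reads. Ccl9 was at 1965 CPM (vehicle) and 2013 CPM (EGCG) at replicate 1, and at 1014 and 1111 CPM at replicate 2. Ccl6 stood at 1609, 1623, 932 and 930.1 CPM in the same order. Both libraries of replicate 1 were above both of replicate 2 for each gene. Their ratio per length, Ccl9 to Ccl6, stayed between 0.641 and 0.731 in the 4 libraries. Of the members, each was the other's nearest in pattern, with a root mean square distance of 0.07 between their centred log2 levels over the 4 libraries. The nearest other member was Ccl4 for Ccl3 and Ccl3 for Ccl4 (0.09), and Ccl12 for Ccl5 and Ccl5 for Ccl12 (0.24). Among 11610 protein-coding genes with at least 10 counts in every library, those closest to Ccl6 were Plxna4, Creg1, Alkbh2, Nasp and Tmem165, at distances of 0.0099 to 0.0166, and a pattern over 4 libraries is shared by many genes.

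Promoters are shown for the abundant Ccl9, Ccl6 and Ccl3 and for Ccl12, the most abundant Ccr2 ligand per length, so that the start regions of genes with different patterns over the libraries can be set side by side. The sequences are from RefSeq (GRCm38.p6), which gave a promoter for 6 of the 10 members and none for Ccl2, Ccl4, Ccl5 and Ccl7. Each is the 250 bases before the RefSeq start, 5′ to 3′ on the strand of the gene, with capitals for letters that match a searched motif.
Ccl9 (chr11:83578637-83578886, minus strand): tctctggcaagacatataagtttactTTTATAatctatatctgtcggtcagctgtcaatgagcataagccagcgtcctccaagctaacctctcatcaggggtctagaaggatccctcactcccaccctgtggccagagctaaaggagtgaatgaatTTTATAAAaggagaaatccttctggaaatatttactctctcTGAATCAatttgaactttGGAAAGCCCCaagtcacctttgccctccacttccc
Ccl6 (chr11:83593088-83593337, minus strand): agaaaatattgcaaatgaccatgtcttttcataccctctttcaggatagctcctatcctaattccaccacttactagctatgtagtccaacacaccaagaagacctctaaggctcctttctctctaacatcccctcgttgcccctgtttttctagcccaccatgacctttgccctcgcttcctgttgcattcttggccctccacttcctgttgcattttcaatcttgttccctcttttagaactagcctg
Ccl3 (chr11:83649379-83649628, minus strand): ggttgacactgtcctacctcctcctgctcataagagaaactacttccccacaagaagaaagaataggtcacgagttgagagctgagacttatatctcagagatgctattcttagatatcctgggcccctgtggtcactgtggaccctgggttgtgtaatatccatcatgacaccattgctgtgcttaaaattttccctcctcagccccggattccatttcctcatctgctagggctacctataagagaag
Ccl12 (chr11:82101595-82101844, plus strand): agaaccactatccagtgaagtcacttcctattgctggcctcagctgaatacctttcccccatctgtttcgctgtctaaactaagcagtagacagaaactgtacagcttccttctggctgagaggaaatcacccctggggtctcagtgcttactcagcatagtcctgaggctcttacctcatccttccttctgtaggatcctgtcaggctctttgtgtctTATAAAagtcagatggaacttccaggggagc
The motifs, searched on both strands in 300 bases that also hold 50 after the start, were the NF-κB consensus, AP-1 (TGANTCA), GAS (TTCNNNGAA), a STAT6 site (TTC and GAA with 4 bases between), the core of an ISRE (GAAA and GAAA with 2 bases between) and the TATA box (TATAAA). Ccl9 held an NF-κB match 35 to 26 bases before its start, found in 8.46% of 32851 promoters, and an AP-1 match 53 to 47 bases before it (7.81%). It also held 3 TATA matches, 2 of which overlap, and Ccl12 held 1 at 31 to 26 bases before the start, where 13.6% of promoters held any. The Ccl6, Ccl3 and Ccl22 windows held none of these letters, and the Ccl17 window held a STAT6 match (6.95% of promoters) and a GAS match (8.30%). No member with an entry held the ISRE core (3.44%).

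The main comparison asked whether EGCG changed the RNA of these chemokines. By the quasi-likelihood test of edgeR, the unadjusted p was below 0.05 for 0 of the 9 members tested (0.116% of all 13811 genes tested), and the count was also 0 by DESeq2 with treatment as the only term (0.174%). The paper, which used DESeq2, lists Ccl3 as upregulated by EGCG at an unadjusted p below 0.05. Here DESeq2 gave Ccl3 an unadjusted p of 0.41 with treatment as the only term, and of 0.016 with the replicate number added as a term. Over all genes, DESeq2 gave 24 with an unadjusted p below 0.05 and 1 with an adjusted p below 0.1 with treatment alone. With the replicate number added these were 153 and 7, and the paper's own 2 counts lie nearer to these. The reason was not tested. No member passed an adjusted p of 0.1 in edgeR, where 0% of genes did, or in DESeq2, where 0.00724% did. The log2 fold changes had a median of 0.10 over the 9 members, against 0.01 over all genes tested, and lay from 0.01 for Ccl6 to 0.38 for Ccl2. Both EGCG libraries were above both vehicle libraries for 2 of the 9, Ccl3 and Ccl4, and below them for none (6.39% and 5.51% of genes tested). EGCG was higher than vehicle at both replicate numbers for 7 of the 9 (29.9% of genes tested) and lower at both for none (20.6%).

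Among the ligands that attract monocytes and T cells, Ccl3 (ENSMUSG00000000982, MIP-1α) was at 271.6 and 219 CPM in Vehicle replicates 1 and 2 and at 289 and 278 in EGCG replicates 1 and 2. The EGCG libraries were therefore the higher pair, by 1.06-fold at replicate 1 and 1.27-fold at replicate 2, and the log2 fold change was 0.21 ± 0.17 (SE, n = 2 libraries per group, unadjusted p = 0.30 and adjusted p = 1.00 from edgeR's test over all genes). Ccl4 (ENSMUSG00000018930, MIP-1β) was at 69.9 and 64.1 CPM in vehicle and at 71.3 and 72.5 in EGCG. Ccl3 and Ccl4 were the members with the narrowest spread. Their log2 fold changes of 0.21 and 0.10 kept their sign with any 1 library left out, between 0.05 and 0.37 for Ccl3 and between 0.02 and 0.17 for Ccl4. A small gap between replicate numbers, as here, also helps to keep the sign in such fits. The per-length ratio of Ccl3 to Ccl4 was 3.35 and 2.95 in vehicle and 3.49 and 3.31 in EGCG. Ccl5 (ENSMUSG00000035042, RANTES) stood at 154 and 993.5 CPM in vehicle and 193 and 996 in EGCG, replicate 1 first. EGCG was thus 1.25-fold the vehicle level at replicate 1 and 1.002-fold at replicate 2, differences far inside the gap between replicate numbers. The log2 fold change of Ccl5 was 0.05 ± 1.22, where the SE includes the gap between replicate numbers. With the replicate number added as a term, edgeR gave 0.16 ± 0.09 (unadjusted p = 0.13). It was -1.60 without EGCG replicate 2 and 1.94 without Vehicle replicate 2, fits in which the groups hold unequal mixes of replicate numbers.

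Among the Ccr2 ligands, Ccl2 (ENSMUSG00000035385, MCP-1) had counts of 409 and 821 (vehicle, replicates 1 and 2) and of 472 and 1688 (EGCG). In CPM these were 12.5 and 22.4 against 14.7 and 30.6, so EGCG was 1.18-fold the vehicle level at replicate 1 and 1.37-fold at replicate 2, while the groups overlapped. The log2 fold change was 0.38 ± 0.50 (unadjusted p = 0.49, adjusted p = 1.00 in edgeR's test). With the replicate number added as a term, edgeR's test gave 0.35 ± 0.09 (unadjusted p = 0.0092, adjusted p = 0.99). The labels link the libraries only by that shared number. Without the term, the value was -0.27 without EGCG replicate 2, which leaves EGCG replicate 1 against both vehicle libraries. Ccl12 (ENSMUSG00000035352) was at 3.90 and 17.5 CPM in vehicle and 4.53 and 17.8 in EGCG. Ccl7 (ENSMUSG00000035373) had counts of 42 and 180 (vehicle) and of 25 and 331 (EGCG). Its differences ran in opposite directions, with EGCG at 0.61 of the vehicle level at replicate 1 and at 1.22-fold at replicate 2. The replicate 1 difference did not exceed counting error (95% interval of the log2 difference -1.49 to 0.03, from an exact binomial interval on the counts). The stromal markers moved the same way as Ccl7 at replicate 1 (422.8 to 4.87 CPM summed, with 6 of the 7 lower in EGCG replicate 1 and Pdgfra at 3.72 and 4.40), and their part in the Ccl7 values was not tested.

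For the Ccr4 ligands, Ccl22 (ENSMUSG00000031779) had counts of 104 and 64 (vehicle) and of 137 and 101 (EGCG), or 3.17 and 1.75 against 4.28 and 1.83 CPM. Its log2 fold change was 0.31 ± 0.61. Ccl17 (ENSMUSG00000031780) with its 4 counts per EGCG library was at 0.125 and 0.0725 CPM. The first lies above the floor of 0.0914 CPM of Vehicle replicate 1, and the second under the floor of 0.0818 CPM of Vehicle replicate 2. At so few counts the difference between the groups was not tested and cannot be judged. Ccl22 and Ccl17 are made by dendritic cells, and of the 6 dendritic cell markers Flt3 and Cd209a were at 0 in every library and Ccr7 and Xcr1 had at most 5 counts. Zbtb46 was detected in every library, with 231 to 313 counts (5.67 to 9.58 CPM). Itgax, which microglia grown with GM-CSF also express, made up nearly all of that list's summed level of 575 to 712 CPM, and the part of dendritic cells in the Ccl22 values was not tested. For Ccl6 and Ccl9 the log2 fold changes were 0.01 ± 0.43 and 0.07 ± 0.49.

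**Figure D2:**
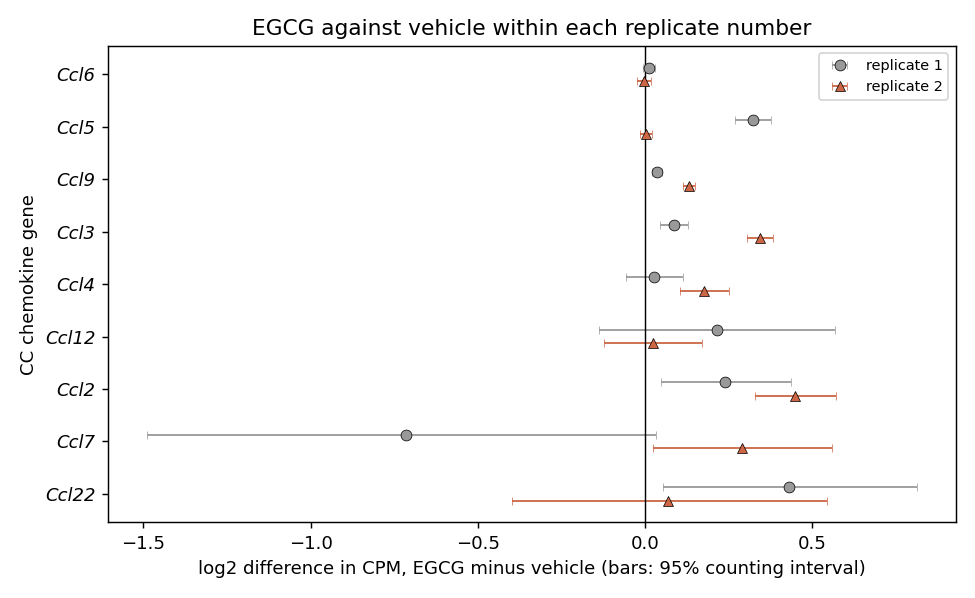
Log2 difference in CPM between the EGCG and the vehicle library of the same replicate number (EGCG minus vehicle) for the 9 members with counts in every library, with bars for the 95% counting interval only. Differences lie between -0.71 (Ccl7, replicate 1) and 0.45 (Ccl2, replicate 2), and only Ccl2, Ccl3 and Ccl9 have both intervals above 0.

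Intervals of 5 members lay wholly above 0 at replicate 1 (Ccl2, Ccl3, Ccl5, Ccl9 and Ccl22) and of 5 at replicate 2 (Ccl2, Ccl3, Ccl4, Ccl7 and Ccl9), where 20.7% and 14.4% of all genes tested did. None lay below 0, against 10.8% and 15.2% of genes. These intervals hold no variation between cultures and are narrower for abundant genes, so the shares are not matched to the level of the members. For 7 of the 9 members the sign of the fold change turned when 1 library was left out, all except Ccl3 and Ccl4. It also turned for 81.8% of all genes that could be tested that way. Such a fit sets unequal mixes of replicate numbers against each other, so a gap between the numbers can turn the sign by itself. The turns therefore do not measure how steady the EGCG difference was within each number.

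For most members the libraries of the 2 replicate numbers differed far more than those of the 2 treatments. Each number may be 1 culture, so this sets these libraries against each other and carries no test. Of the 9 members tested, 3 were more than 2-fold higher in replicate 2 in vehicle and in EGCG alike, namely Ccl5, Ccl7 and Ccl12 (4.31% of genes tested), and none was more than 2-fold lower in both (7.73%). Both replicate 2 libraries were above both replicate 1 libraries for 4 members (39.2% of genes tested) and below them for 3 (37.4%). For 7 of the 9, the smaller of the differences between replicate numbers exceeded the larger of the differences between EGCG and vehicle, as it did for 57.1% of all genes tested.

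Ccl5 showed the widest gap in vehicle, 6.44-fold between the vehicle libraries and 5.16-fold between the EGCG libraries. Its count in Vehicle replicate 1 was 5059 and in Vehicle replicate 2 it was 36419, in libraries of similar depth. Ccl5 is also made by T cells. Of the 4 T cell markers, Cd3d, Cd3e and Cd3g had at most 1 count in any library and Cd247 had 1 to 10. The part of T cells in the Ccl5 values was not tested. Ccl7 was 3.84-fold higher in vehicle and 7.69-fold higher in EGCG, and Ccl12 was 4.48-fold and 3.93-fold higher. Ccl2, which lies just outside the 2-fold limit, was 1.80-fold and 2.08-fold higher in replicate 2, so the 3 Ccr2 ligands of the first chromosome 11 group all stood higher there. Their summed level was 17.6 and 20.0 CPM in Vehicle and EGCG replicate 1 and 44.8 and 54.4 in Vehicle and EGCG replicate 2. In the second group the genes parted. Ccl5 was the higher one, Ccl3 and Ccl4 differed by less than 1.24-fold, and Ccl9 and Ccl6 were lower in replicate 2, 1.94-fold and 1.73-fold in vehicle and 1.81-fold and 1.74-fold in EGCG. Ccl22 was 1.82-fold lower in vehicle and 2.34-fold lower in EGCG, where replicate 2 had 101 counts.

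**Figure D3:**
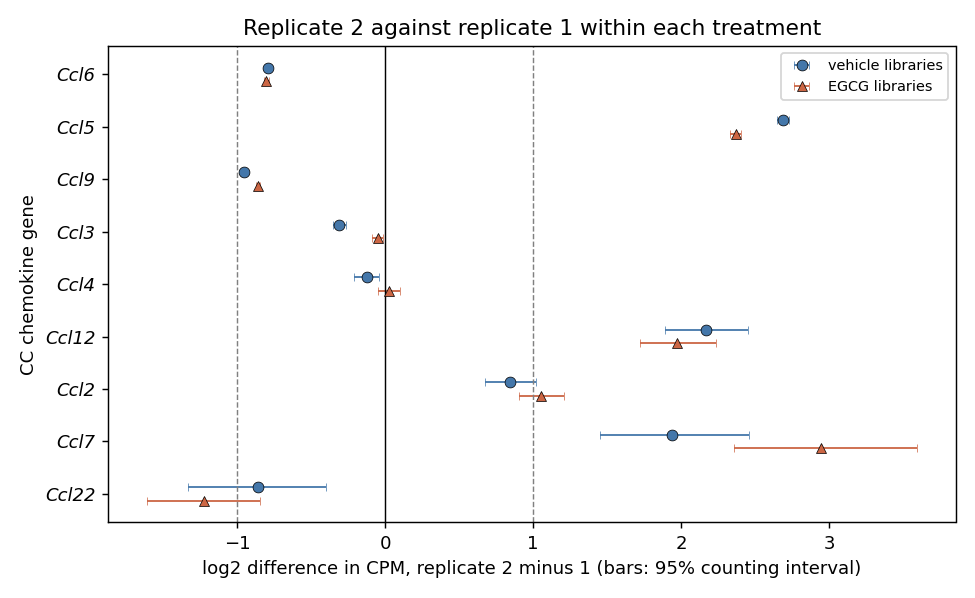
Log2 difference in CPM of replicate 2 minus replicate 1 within vehicle (blue circles) and within EGCG (orange triangles) for the 9 members, with 95% counting intervals and dashed lines at the 2-fold limits. Ccl5, Ccl7 and Ccl12 lie beyond the upper limit in both treatments, and Ccl6 and Ccl9 lie between -0.95 and -0.79.

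The make-up of the family's reads followed the replicate number as well. Ccl6 and Ccl9 together held 87.4% (vehicle) and 86.3% (EGCG) of the family's counts at replicate 1, but 59.5% and 59.3% at replicate 2. Ccl5 held 3.77% and 4.58% in replicate 1 and 30.4% and 28.9% in replicate 2, vehicle first. The family's total was 4090 and 4213 CPM in Vehicle and EGCG replicate 1 and 3269 and 3444 in replicate 2, so the shift lay in the mixture more than in the sum. These shares do not depend on how the libraries were scaled. Microglia markers also differed between the numbers, with Cx3cr1 at 267 and 605 CPM and Itgam at 404 and 169 in Vehicle replicates 1 and 2. Of the 4 endothelial markers, Pecam1 was higher in replicate 2 (2 and 580 counts in vehicle), Cdh5 was 2.60-fold lower there in vehicle and 3.44-fold lower in EGCG, Tek had at most 3 counts and Cldn5 was at 0 throughout. Their part in the chemokine differences was not tested.

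**Figure D4:**
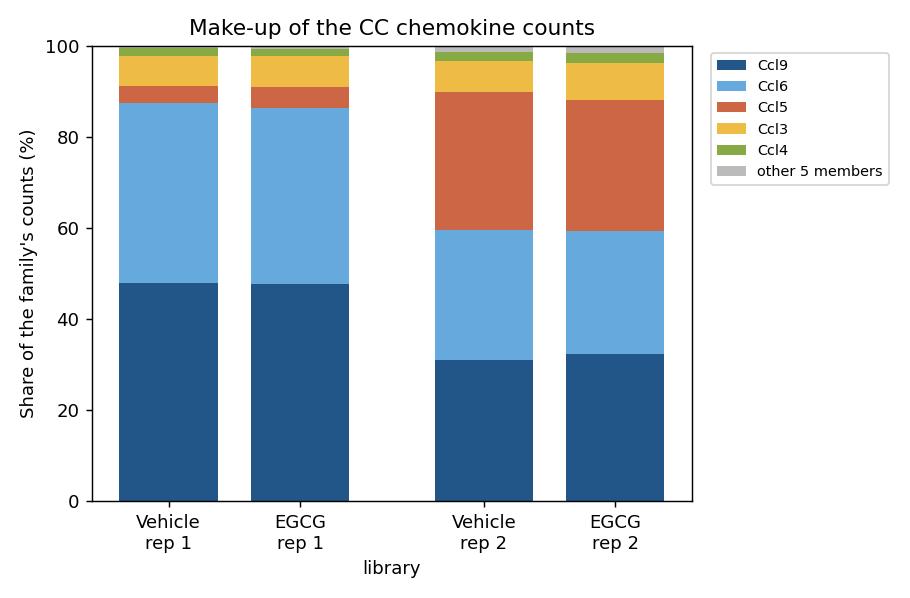
Share of the counts of the 10 CC chemokines held by Ccl9, Ccl6, Ccl5, Ccl3, Ccl4 and the other 5 members together in each library, in percent. The 2 replicate 1 bars resemble each other and the 2 replicate 2 bars resemble each other, with Ccl5 at 3.77% and 4.58% against 30.4% and 28.9%.

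The other genes of the pathway were sparser than the members. Of 11 other CC ligands, 6 could be tested and edgeR gave none of them a p below 0.05 before adjustment, and Ccl1, Ccl19, Ccl21a and Ccl26 had no count. The highest of the list per length was Ccl8, whose gene lies beside Ccl12. Ccl24 and Ccl25 came next. Ccl8 had counts of 52 and 133 (vehicle, replicates 1 and 2) and of 64 and 262 (EGCG), so like Ccl12 it was higher in replicate 2, 2.29-fold in vehicle and 2.38-fold in EGCG. Ccl20 had at most 2 counts in a library, under the floor. Of 15 receptors, 9 could be tested and none had such a p. Ccr1, the receptor shared by Ccl3, Ccl5, Ccl6 and Ccl9, was at 328 and 182 CPM in vehicle and 281.5 and 191 in EGCG, replicate 1 first. Ccrl2, an atypical receptor that does not signal in the usual way, was at 24.7 to 27.6 CPM, whereas Ccr2, the receptor of the Ccl2 group, was at 2.25 to 4.40 CPM. Ccr4, the receptor of Ccl17 and Ccl22, had at most 3 counts in a library, and Ackr1, Ackr2 and Ccr8 had none.

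Of 28 regulators and growth factor receptors, all were tested and edgeR gave none a p below 0.05 before adjustment, the smallest being 0.168 for Tnfaip3. Tnfaip3, an NF-κB feedback inhibitor, was at 124 CPM in both vehicle libraries and at 137 and 154 in EGCG. Nfkbia, which encodes IκBα, was at 60.4 and 103.5 CPM in vehicle and 72.3 and 117 in EGCG. Csf1r, Csf2ra and Csf2rb, receptors of the growth factors in the medium, were the highest of the list per length. Csf1r was at 1195 and 2373 CPM in Vehicle replicates 1 and 2, and Csf2ra was at 568 and 293. Between replicate numbers, none of the 28 was more than 2-fold lower in replicate 2 in both treatments (7.73% of all genes tested). Csf2ra and Tgfbr1, among others, were lower there in both by less than 2-fold. More than 2-fold higher in both were 6 of the 28 (4.31% of all genes tested). They include Nfkb2, Relb, Nfkbiz, Fos and Tgfbr2, named after their values were seen. Nfkbiz, an NF-κB cofactor, was 4.46-fold higher in vehicle and 4.47-fold higher in EGCG, the same direction as Ccl5, and any link between them was not tested.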

How the data were processed

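The authors deposited raw read counts per gene, without normalization, in 1 table per replicate number with a vehicle and an EGCG column. Per the paper's methods and the labels, HISAT2 aligned the filtered paired-end reads of a strand-specific poly-A library to the GRCm38.p6 genome. The counting program, its strand setting and the annotation are not given in the sources used here, so reads of overlapping genes may be shared. Columns were matched to samples by treatment and by the study's sample sheet, which names the table of each sample.

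Tables were joined on the Ensembl identifier (54532 genes), and new loci that each table numbers on its own (697 and 329) were dropped. The 13811 protein-coding genes that reached 10 counts in total were tested in edgeR 4.0.16 (R 4.3.3) with TMM scaling, the default quasi-likelihood F test, treatment as the only term, two-sided, and Benjamini-Hochberg adjustment over all genes tested. Thresholds were an unadjusted p of 0.05 and an adjusted p of 0.1. The study's package, DESeq2 (1.42.0 here), and a replicate block were alternatives. With 2 libraries against 2, exact permutation cannot give a two-sided p below 0.333. The fits were tested on simulated data. Levels per length used the gene length in the files. BLAST 2.17.0 was used for near-identical transcripts (GENCODE M21). Intervals and floors cover counting error only.

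The members, lists and named genes (all members, list genes with p under 0.05 in either edgeR fit, and the 3 highest per length in each list) were chosen with earlier results of these data known. Marker lists for microglia, astrocytes, stromal cells, oligodendrocytes, endothelium, dendritic cells, T cells, neutrophils and border macrophages were summed. Protein sequences were not used here, and some genes of the lists are not reported here by name.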

Additional observations from a re-analysis of the deposited data

How the results depend on the processing

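No member passed an adjusted p of 0.1 under any alternative. With the replicate number as a block, 2 members had an unadjusted p under 0.05 in edgeR (3.21% of all genes did), Ccl2 (0.0092) and Ccl3 (0.031), and 1 in DESeq2 with the replicate block, Ccl3 (0.016, where 1.11% of all genes did). Of the regulators, Nfkbia and Tnfaip3 had an unadjusted p of 0.012 and 0.013 with the replicate block in edgeR and of 0.040 and 0.020 with it in DESeq2. The adjusted p of these 4 genes was 0.99 and above in the edgeR and DESeq2 models. The block is not supported by the labels beyond the shared number, although libraries of the same number deviated together (r = 0.64 between the replicate differences of vehicle and of EGCG, taken over genes and not over independent samples). The median log2 fold change was 0.10 and ranged from 0.045 to 0.18 with each library left out. Fits without 1 library set unequal mixes of replicate numbers against each other, so their ranges include the gap between the numbers. With 1 library left out, the log2 fold changes ranged from -0.27 to 0.85 for Ccl2, -1.60 to 1.94 for Ccl5, -0.45 to 0.46 for Ccl6, -2.01 to 1.41 for Ccl7, -0.43 to 0.63 for Ccl9, -1.27 to 1.51 for Ccl12 and -0.43 to 0.80 for Ccl22, where the lone library of a group is assumed to vary like the other group. Ccl6, at 0.01, changed sign to -0.0021 in DESeq2, -0.0025 in DESeq2 with the replicate block, -0.019 with upper-quartile factors and -0.0077 with at least 10 counts in every library. Ccl7 changed sign to -0.12 with the replicate block in edgeR and -0.16 with it in DESeq2. The cause was not tested. At 1.5-fold in place of 2-fold, 7 members differed between replicate numbers in both treatments, against 3, and the count was 3 with either other scaling. The share of all genes was taken at 2-fold only, so the 7 members cannot be set against other genes or read as a trait of the family. Without division by gene length, 5 of 10 members kept their place in the order of levels. The number of genes with an unadjusted p under 0.05 was 16 and, in turn, 24 with DESeq2, 444 and 153 with the block, and 3 with at least 10 counts in every library. Depth limits Ccl17.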

Other observations

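The 6 astrocyte markers summed to 18.4 and 13.7 CPM in Vehicle replicates 1 and 2 and to 13.6 and 14.3 in EGCG replicates 1 and 2, mostly from Aldh1l1, with Gfap at 0.0624 to 0.852 CPM. The 6 oligodendrocyte markers summed to 100.4 to 105 CPM, nearly all from Mbp and Cnp, while Mog had at most 1 count in a library. The 4 T cell markers summed to at most 0.305 CPM.

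Of the neutrophil markers, S100a8 had 366 and 105 counts in Vehicle replicates 1 and 2 and 410 and 191 in EGCG, whereas Ly6g and S100a9 were listed at 0 in every library. Among the border macrophage markers, Pf4, itself a chemokine of the CXC class, was at 451 and 142 CPM in Vehicle replicates 1 and 2 and at 519.7 and 130 in EGCG replicates 1 and 2, so it shared with Ccl6 and Ccl9 the higher level in replicate 1. Mrc1 ran the other way, at 213.5 and 353.6 CPM in vehicle. The other markers of that list were low, with Lyve1 at 6 to 28 counts in a library and Cd163 at no more than 4. None of these marker genes had an unadjusted p under 0.05 between EGCG and vehicle in edgeR's test without the block.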
